A study of Drosophila melanogaster with 4 samples.

Results

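The Niemann-Pick type C genes of the fruit fly Drosophila melanogaster are described here in RNA from adult intestines. The 10 genes, Npc1a, Npc1b and Npc2a to Npc2h, were taken as the rows of the count table whose FlyBase identifiers carry these symbols, 10 of 17510 genes in all, of which 2 belong to the Npc1 and 8 to the Npc2 type. Flies cannot make sterols and take them from food. NPC1 proteins are large membrane proteins with a sterol-sensing domain, and NPC2 proteins are small soluble proteins of the ML (MD-2-related lipid recognition) fold; in mammals NPC2 binds cholesterol inside the lysosome and hands it to NPC1 for export. In the fly, Npc1b is known for the absorption of dietary sterol in the midgut, Npc1a for sterol trafficking in many tissues including the steroid-making ring gland, and Npc2a and Npc2b for sterol balance in which each can partly stand in for the other. Npc2a, Npc2e and Npc2h proteins are also known to bind bacterial cell wall components.

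Total RNA was sequenced from dissected intestines, with the Malpighian tubules and crop taken off, of wild-type flies (2 libraries) and of flies labelled as mutant by RNAi knockdown of CG5789 (2 libraries), a National Institute of Genetics transgenic line. CG5789 is now named Cftr and serves in the series as the fly gene matching CFTR, a chloride channel gene of humans. The sources used here do not give the driver of the RNAi, the age and sex of the flies or the number of animals per library, and the labels hold no control library for the transgene or the driver. Whether the 2 libraries of each genotype were made from different flies is not stated, and p-values therefore cover only the variation among the libraries, which may be technical. Cftr had 398 and 483 counts in wild type 1 and 2 and 432 and 429 counts in RNAi 1 and 2, or 13.8 and 43.4 CPM (counts over the TMM-scaled library size, in parts of 1e6) against 13.8 and 17.5 CPM, so that the library labelled RNAi 1 was not below the library labelled wild type 1. Every direction below is therefore for libraries as labelled. Library totals were 30537063, 11294882, 30252763 and 23674485 counts in that order, and the smallest, wild type 2, gives the least precise values. The leading principal component (52.6% of variance) placed wild type 1 and RNAi 1, called set 1 here, apart from wild type 2 and RNAi 2, called set 2. The labels name no such batch.

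Enterocyte genes checked the tissue: mex1, a midgut brush border gene, stood between 930 and 1172 CPM in the 4 libraries, and none of the 6 enterocyte markers tested passed in edgeR without or with a term for the library set (0 at an unadjusted p under 0.05 in either fit). The 6 genes summed to 42468 and 37138 CPM in wild type and 33864 and 27670 CPM in the libraries labelled RNAi. Most of this sum was alphaTry, with 32981 and 27425 CPM against 24217 and 18990 CPM. Within sets, alphaTry was lower and nub higher in both libraries labelled RNAi, and the other markers were mixed. Markers of other tissues were present at lower levels. The 6 visceral muscle genes summed to 736 and 1533 CPM in wild type and 542 and 1035 CPM in the libraries labelled RNAi, and the 4 Malpighian tubule genes to between 9.29 and 19.4 CPM. The 4 haemocyte (blood cell) genes summed to 0.588 and 0.987 CPM in wild type and 5.32 and 3.26 CPM in the libraries labelled RNAi, with He at 0 counts in every library. Most of this sum was NimC1, with 9 and 8 counts in wild type and 131 and 71 counts in the libraries labelled RNAi. Hml had 8 and 3 against 28 and 8 counts, and eater 0 and 0 against 7 and 1, all near the floor. The muscle sum was lower in the library labelled RNAi within each set, the haemocyte sum was higher in both libraries labelled RNAi, and the Malpighian tubule sum was lowest in RNAi 1. The fat body genes, 5 in all, summed to 183 and 172 CPM in wild type and 170 and 333 CPM in the libraries labelled RNAi. With the set term edgeR called 3 of 6 muscle genes lower, against 3.65% of tested genes. All 6 were lower in both sets, against 30.9% of tested genes. The same fit called 3.45% of tested genes higher. Among the markers these were NimC1, the only haemocyte gene tested, and Yp1, a yolk protein gene and 1 of 3 tested fat body genes. By its wild-type counts alone NimC1 would not have entered the test. Of 5 enteroendocrine genes the peptide gene AstA was called higher and the peptide gene NPF lower. The tubule gene Irk3, 1 of 3 tested, was called lower. Without the term edgeR called 0 markers, with NimC1 alone at an unadjusted p under 0.05. The part of these cell types in the Npc values was not tested. In bulk tissue, fewer cells of a type and less RNA per cell cannot be told apart.

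Per length of transcript, the Npc2 genes Npc2f and Npc2d were by far the most abundant of the family in the gut. The level used for this order was the count per kilobase of annotated exon, scaled so that all genes of a library sum to 1e6. Npc2f had a mean level of 1168 (730 to 1520 over the 4 libraries) and ranked between 93rd and 199th of 17405 genes. Npc2d followed with a mean level of 563 (367 to 839), and its range overlapped that of Npc2f, although Npc2f was above it in 4 of 4 libraries. The lowest Npc2d value was above the highest of Npc2a, whose mean level was 91.5 (66.6 to 141).

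Below these 2 genes the neighbours in the order overlapped. Npc1b had a mean level of 85.8 (26.2 to 182) and stood below Npc2a in 3 of 4 libraries. Npc2b had a mean level of 28.2 (23.6 to 34.2), Npc2c 14.7 (0.0552 to 38.5), Npc2g 13.6 (3.55 to 20.0) and Npc1a 5.13 (1.99 to 8.10). Npc2h and Npc2e were the least abundant, with mean levels of 1.63 (0.576 to 2.45) and 0.770 (0 to 1.71). Npc2c and Npc2e share most of their exon bases with antisense genes, and the strand setting of the counting is not given. Their rows may therefore hold only part of their reads, and their places in this order are uncertain. Of the Npc1 signal per length, Npc1b made up 92.9% and 85.5% in wild type and 97.3% and 95.8% in the libraries labelled RNAi.

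**Figure D1:**
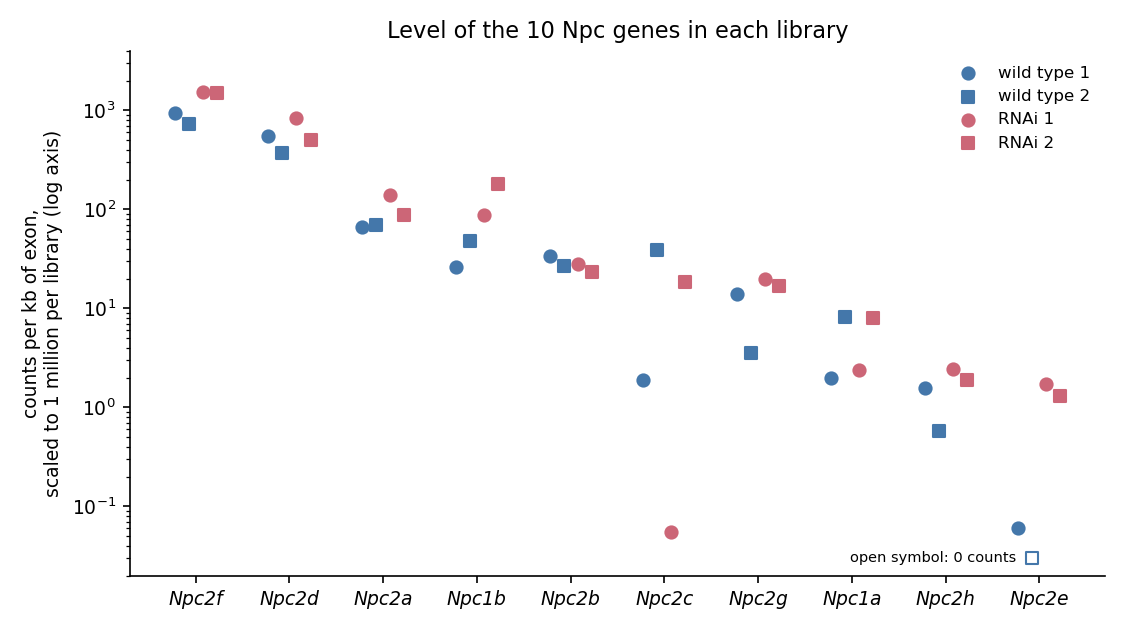
Level of each Npc gene in each of the 4 libraries, as counts per kilobase of annotated exon scaled to a sum of 1e6 per library, on a log axis, ordered by mean; circles are set 1 and squares set 2, blue wild type and red RNAi, and the open square is a count of 0. Npc2f and Npc2d lie above all others in every library, and both red points of Npc1b, Npc2a, Npc2e, Npc2f, Npc2g and Npc2h lie above both blue ones. This scale is without TMM scaling, and in TMM-scaled CPM the groups overlapped for Npc2g and Npc2h.

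Among the 4 members of highest level, Npc1b had the largest fold difference between genotypes. The gene (FBgn0261675) lies on the plus strand of chromosome X at 20934869 to 20939503 of the BDGP6 assembly, with 1 annotated transcript of 6 exons and no overlapping gene. It had 90.9 and 145 CPM in wild type 1 and 2 (118 ± 38.5, SD, n = 2) against 283 and 514 CPM in RNAi 1 and 2 (398 ± 163, SD, n = 2). Both libraries labelled RNAi were above both wild-type libraries, and within each genotype set 2 was the higher. The 3.37-fold difference (log2 fold change 1.75, SE 0.48) did not pass edgeR's quasi-likelihood test over all 9637 genes tested (adjusted p = 0.626), while the adjusted p by DESeq2 was 0.0392. With the library set as a term in the edgeR fit the fold was 3.32 (log2 fold change 1.73, SE 0.19, edgeR adjusted p = 8.74e-09).

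The ratio of Npc1b was of like size in both sets. RNAi 1 had 3.12 times the level of wild type 1 (95% exact binomial interval 2.98 to 3.26) and RNAi 2 had 3.53 times that of wild type 2 (3.36 to 3.72); these intervals, here and below, cover counting error only. Of 6760 genes whose mean reached 5 CPM, 40, Npc1b itself among them, had log2 ratios at least as high as those of Npc1b in both sets. Set against the enterocyte gene mex1 in the same library, Npc1b had 0.0978 and 0.124 counts per mex1 count in wild type and 0.266 and 0.475 in the libraries labelled RNAi. No other enterocyte gene was used in this way, and the part of cell content in the difference was not tested.

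Npc1a, the broadly used NPC1 gene, showed a difference between library sets and none that held between genotypes. The gene is on the minus strand of 2L at 10213812 to 10221216, with 7 annotated transcripts. It had 9.03 and 32.3 CPM in wild type 1 and 2 and 10.3 and 29.5 CPM in RNAi 1 and 2. The groups overlapped, and set 2 stood above set 1 by 3.58 times among wild-type and 2.88 times among RNAi libraries. The log2 fold change was -0.048 (SE 0.72, edgeR adjusted p = 1.0) without the set term and 0.021 (SE 0.18, edgeR adjusted p = 0.977) with it. Relative to Npc1a per length, Npc1b stood at 13.2 and 5.89 in wild type and 36.1 and 22.8 in the libraries labelled RNAi.

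Npc2f, the most abundant NPC2 gene of these guts, was higher in both libraries labelled RNAi. It lies on the plus strand of 3R at 24137895 to 24140936, apart from the other Npc2 genes. It had 585 and 399 CPM in wild type (492 ± 132, SD, n = 2) against 888 and 748 CPM (818 ± 98.5, SD, n = 2). The groups did not overlap, and the ratio was 1.52 (1.49 to 1.55) in set 1 and 1.88 (1.82 to 1.94) in set 2. The 1.66-fold difference did not pass without the set term (log2 fold change 0.73, SE 0.41, edgeR adjusted p = 1.0) and did with it (log2 fold change 0.75, SE 0.20, edgeR adjusted p = 0.0112).

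Npc2a, the sterol and cell wall binding gene expressed in many tissues, was also higher in both libraries labelled RNAi, by little in set 2. It is a single-exon gene on the plus strand of 2L at 1988290 to 1988940. It had 37.8 and 34.8 CPM in wild type (36.3 ± 2.14, SD, n = 2) against 75.3 and 40.9 CPM (58.1 ± 24.4, SD, n = 2). RNAi 1 stood apart from the other 3 libraries: the ratio was 1.99 (1.85 to 2.14) in set 1 and 1.17 (1.04 to 1.32) in set 2. With the set term the fold was 1.54 (log2 fold change 0.63, SE 0.18, edgeR adjusted p = 0.0317); without it the edgeR adjusted p was 1.0, and with the set term it was 0.189 in DESeq2 and 0.0681 in edgeR with no count filter. Leaving out RNAi 1, with no term for the set, gave a log2 fold change of 0.17.

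Npc2b, which can partly replace Npc2a, lay on the other side. The gene lies on the plus strand of 3R at 14089517 to 14092425. It had 27.5 and 19.1 CPM in wild type and 21.1 and 15.4 CPM in the libraries labelled RNAi. The groups overlapped, but within each set the library labelled RNAi was the lower, at 0.766 times wild type (0.690 to 0.850) in set 1 and 0.806 times (0.680 to 0.958) in set 2. The log2 fold change of -0.36 (SE 0.41) did not pass in edgeR (adjusted p = 1.0), nor with the set term (-0.35, SE 0.17, adjusted p = 0.285).

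**Figure D2:**
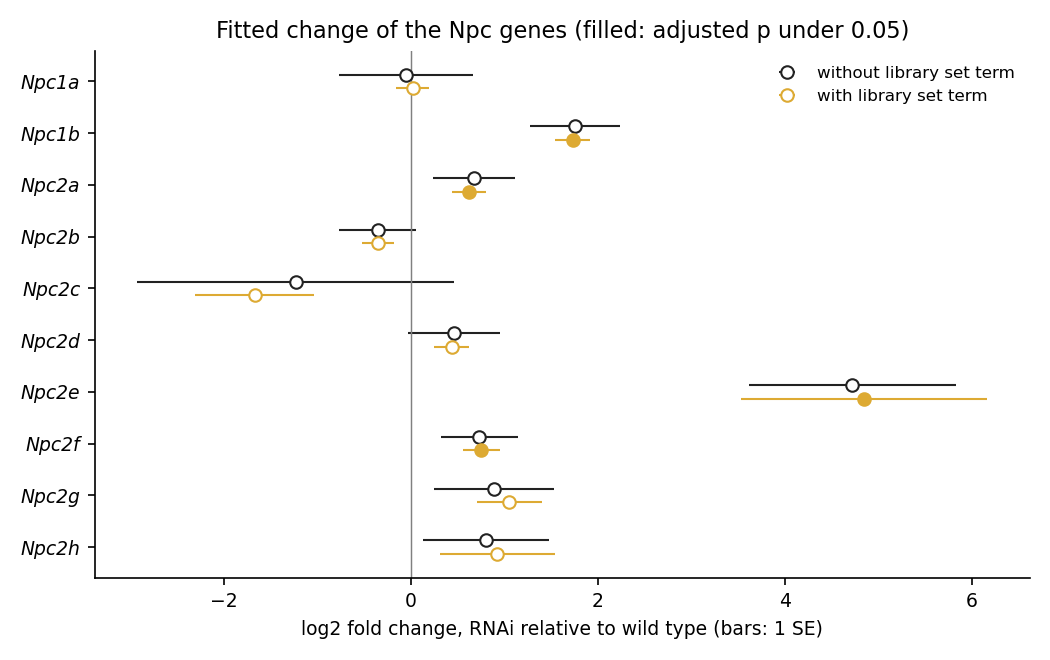
Fitted log2 fold change of each Npc gene, RNAi relative to wild type, with bars of 1 SE, from edgeR without (black) and with (yellow) the library set term; filled points have an adjusted p under 0.05. No black point is filled, and the filled yellow points are Npc1b at 1.73, Npc2a at 0.63, Npc2e at 4.85 and Npc2f at 0.75.

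The other 5 Npc2 genes lie in a pair of tandem clusters on 3R. Npc2e, Npc2d and Npc2c span 7805 bases from 10053332 to 10061136, with gaps of 1007 and 4168 bases between them and Npc2d on the opposite strand to the other members. Npc2g and Npc2h lie side by side on the minus strand from 30744605 to 30746290, with 215 bases between them. In the first cluster Npc2c and Npc2d were high in opposite library sets, and in the other both members were lowest in the same library, wild type 2.

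Npc2d, the second most abundant member, had 315 and 186 CPM in wild type and 455 and 236 CPM in the libraries labelled RNAi. RNAi 2 was below wild type 1, so the groups overlapped, and set 1 was the higher in each genotype. Within sets the ratio was 1.44 (1.41 to 1.48) and 1.27 (1.20 to 1.33). The log2 fold change of 0.46 (SE 0.49) did not pass in edgeR (adjusted p = 1.0), nor did that of 0.44 (SE 0.18) with the set term (adjusted p = 0.182). With the set term and scaling by library size alone it passed (edgeR adjusted p = 0.0428), and without RNAi 1 the log2 fold change was -0.089.

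Npc2c, the neighbour of Npc2d, varied more between libraries than any other member. Its counts were 34 and 233 in wild type 1 and 2 and 1 and 227 in RNAi 1 and 2, or 1.18 and 20.9 CPM against 0.0320 and 9.26 CPM. Both libraries of set 2 were high and both of set 1 were low, in the reverse order of Npc2d. The library labelled RNAi was the lower in each set, with a ratio of 0.0272 (0.00067 to 0.162) in set 1, where RNAi 1 had a single count, and 0.443 (0.367 to 0.534) in set 2.

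The fitted change of Npc2c without the set term turned its sign when wild type 2 was left out. The log2 fold change was -1.23 (SE 1.69, edgeR adjusted p = 1.0), and -1.67 with the set term (SE 0.64, edgeR adjusted p = 0.326). It was 2.02 without wild type 2 (edgeR adjusted p = 1.0) and -8.23 without RNAi 2 (edgeR adjusted p = 0.0121), and the set-term fits of DESeq2 and limma-voom called it lower (adjusted p = 0.00200 and 0.00401). An antisense gene, asRNA:CR45205, shares 414 of its 708 exon bases and had 0 counts in every library.

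Npc2e, a cell wall binding member, had almost no counts in wild type and few in the libraries labelled RNAi. It had 1 and 0 counts in wild type 1 and 2 and 29 and 15 counts in RNAi 1 and 2. In all, 44 counts stood against 1, a ratio of 31.6 with an exact binomial interval of 5.39 to 1277. In set 2, where wild type 2 had 0 counts, the lower limit of the exact binomial interval put RNAi 2 at 1.63 times wild type 2. The edgeR adjusted p was 0.438 without and 0.0151 with the set term. The fitted log2 fold changes of 4.72 and 4.85 depend on the prior count that edgeR adds by default in the fit.

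The Npc2e row is uncertain in a further respect. Of its 661 exon bases, 611 are shared with asRNA:CR44192 on the other strand, which had 150 and 129 counts in wild type and 313 and 210 counts in the libraries labelled RNAi. Without the strand setting of the counting, reads of the gene and of its antisense partner cannot be told apart, and the row may hold only part of the reads of Npc2e. The antisense row itself was at 5.19 and 11.6 CPM in wild type, and both libraries labelled RNAi lay between these values. Npc2e also entered the test only through the libraries labelled RNAi, so that it could not have been tested without a difference.

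Npc2g and Npc2h were lowest in wild type 2. Npc2g had 7.99 and 1.80 CPM in wild type and 10.8 and 7.83 CPM in the libraries labelled RNAi. Npc2h, a cell wall binding member, had 1.11 and 0.359 CPM against 1.63 and 1.10 CPM. In both genes the 3 libraries other than wild type 2 were close to each other. In CPM the groups overlapped by a small margin between wild type 1 and RNAi 2. On the scale per kilobase they did not overlap, with RNAi 2 at 16.8 against 13.9 in wild type 1 for Npc2g, and at 1.91 against 1.56 for Npc2h. The exon length of a gene is the same in every library, so this change comes from the scaling of the libraries. The scale per kilobase is without TMM scaling. Npc2g counts were 7.22, 5.0, 6.63 and 7.11 times those of Npc2h in wild type 1, wild type 2, RNAi 1 and RNAi 2.

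Neither gene passed in edgeR without the set term or, with TMM scaling and the count filter, with it. For Npc2g the log2 fold change was 0.89 (SE 0.64, edgeR adjusted p = 1.0) without it and 1.06 (SE 0.35, edgeR adjusted p = 0.128) with it. The corresponding values of Npc2h were 0.81 (SE 0.68, edgeR adjusted p = 1.0) and 0.93 (SE 0.61, edgeR adjusted p = 0.474). Leaving out wild type 2 gave log2 fold changes of 0.23 for Npc2g and 0.31 for Npc2h. Npc2g had a ratio of 1.36 (1.14 to 1.61) in set 1 and 4.36 (2.75 to 7.30) in set 2, the latter resting on 20 counts in wild type 2. With the set term, Npc2g was called higher in edgeR when libraries were scaled by size alone (adjusted p = 9.52e-05) or no count filter was used (adjusted p = 0.00288).

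**Figure D3:**
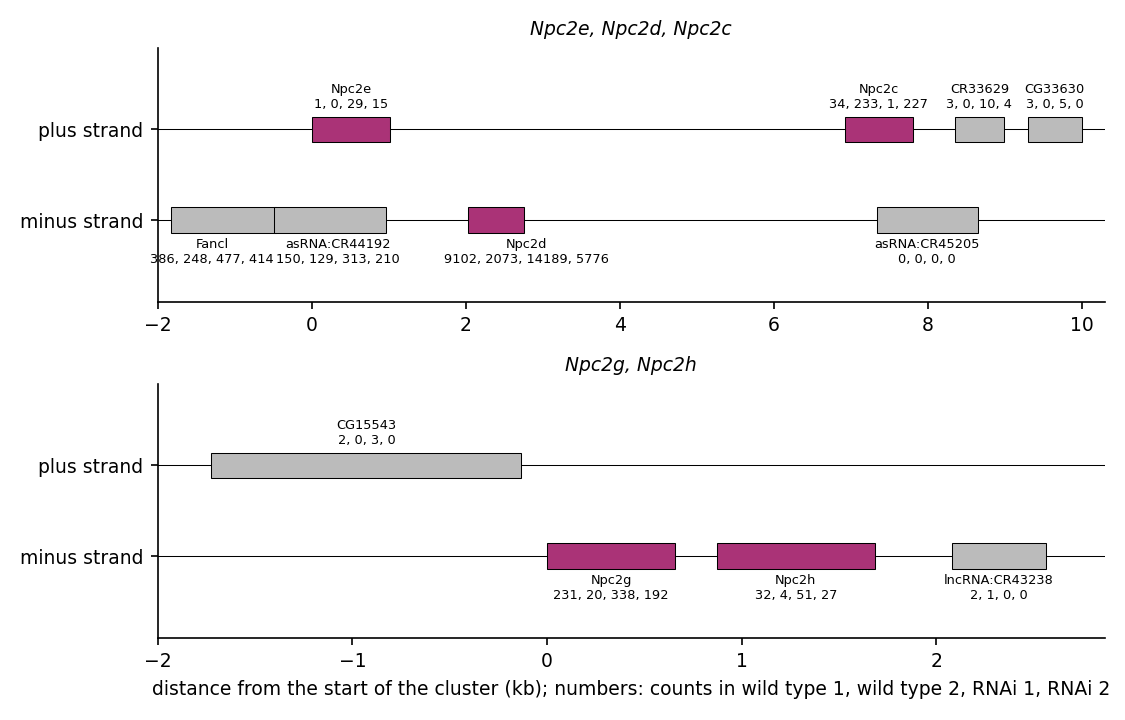
Maps of the tandem clusters of Npc2 genes (purple) with neighbouring genes (grey) on each strand, against distance in kb from the start of the cluster; the numbers are counts in wild type 1, wild type 2, RNAi 1 and RNAi 2. Npc2d has between 2073 and 14189 counts in each library, while its neighbours Npc2e and Npc2c reach 29 and 233, and Npc2g and Npc2h are both lowest in wild type 2.

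As a family, 0 of the Npc genes were called without the set term and 4 with it, all 4 of them higher. In edgeR without the term 0 of 10 members were called in either direction, against 0.104% of tested genes called higher and 0.0208% called lower; 2 members, Npc1b and Npc2e, had an unadjusted p under 0.05 and were higher, as did 2.17% of tested genes that were higher and 1.66% that were lower. DESeq2 called 1 member and limma-voom 0. With the set term Npc1b, Npc2a, Npc2e and Npc2f were called higher and none lower, where 3.45% of tested genes were called higher and 3.65% lower. Leaving aside Npc2e, 3 of 9 members were called higher. Both libraries labelled RNAi were above both wild-type libraries in 4 of 10 members, or 3 of 9 without Npc2e, against 12.0% of tested genes, and below them in 0 of 10, against 12.2%. The scale per kilobase, without TMM scaling, was compared after the values were seen. On it the libraries labelled RNAi were both above in 6 of 10 members (5 of 9 without Npc2e), against 15.5% of tested genes. They were both below in 0, against 8.24%. With 10 members, 5 of them in tandem clusters, these counts say little about the family.

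Within sets, 7 of 10 members (6 of 9 without Npc2e) were higher in the library labelled RNAi in both sets and 2, Npc2b and Npc2c, were lower in both, where 30.5% and 30.9% of tested genes were. The median log2 fold change of the members was 0.71 without the set term and 0.69 with it (0.68 and 0.63 without Npc2e), against 0.0065 and 0.0040 over all genes tested. Summed CPM of the Npc1 genes was 99.9 and 178 in wild type and 293 and 543 in the libraries labelled RNAi. That of the Npc2 genes was 975 and 662 against 1452 and 1059. Per length, Npc2 signal stood at 56.9 and 22.2 times Npc1 signal in wild type and 28.6 and 11.2 times in the libraries labelled RNAi, that is, at 0.502 and 0.506 of the wild-type ratio in sets 1 and 2.

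The set term was not part of the labels. Because the sets were read from these very counts, and the fit kept 1 residual degree of freedom, p-values of that fit can be too small, and it could not be repeated without a library. With no such term, Npc1b's log2 fold change stayed between 1.22 and 2.16 as each library was left out.

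**Figure D4:**
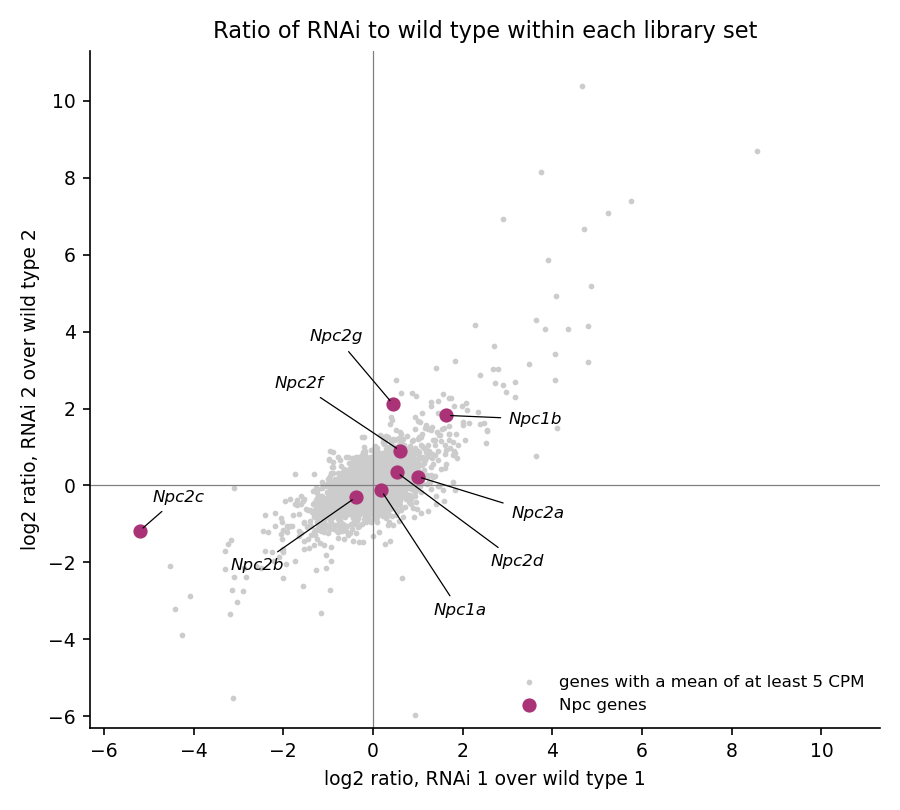
Log2 ratio of RNAi to wild type within set 1 (x axis) and set 2 (y axis) for genes whose mean reached 5 CPM and that had a count in each library (grey) and the Npc genes among them (purple). Npc1b lies at 1.64 and 1.82, Npc2c at -5.20 and -1.18, and Npc2g at 0.44 and 2.12; Npc2e and Npc2h are below the CPM limit.

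The other lists of sterol and lipid handling each held 0 to 1 called gene with the set term. That fit called 3.45% of all tested genes higher and 3.65% lower. With 11 tested genes or fewer per list, such counts say little about the lists, and the same holds for the 10 Npc genes. Of 11 tested genes for sterol sensing and lipoproteins, Hr96, a nuclear receptor that binds cholesterol and is known to regulate Npc1b and the lipase gene mag in the fly gut, was the only one called, with the set term. It had 41.2 and 50.7 CPM in wild type against 92.1 and 80.0 CPM, 1.88-fold higher with the set term (log2 fold change 0.91, SE 0.17, edgeR adjusted p = 3.10e-04; adjusted p = 1.0 without it). Npc1b counts per Hr96 count were 2.21 and 2.87 in wild type and 3.07 and 6.42 in the libraries labelled RNAi. The lipase gene mag, named here for that link and not by the naming rule, had 821 and 488 CPM in wild type and 442 and 606 CPM in the libraries labelled RNAi, lower in set 1 and higher in set 2.

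None of the 8 tested sterol and lipid transfer genes was called in edgeR (0 at an unadjusted p under 0.05 in either fit). The closest was Orp8, an oxysterol-binding protein gene, with a log2 fold change of 0.23 with the set term (SE 0.17, edgeR adjusted p = 0.536). Of 7 tested genes for sterol ester and neutral lipid enzymes, 1 was called higher with the set term: Lip3, of the acid lipase family, had 3.74 and 0.987 CPM in wild type against 21.3 and 2.12 CPM (log2 fold change 2.17, SE 0.30, edgeR adjusted p = 8.44e-06; adjusted p = 1.0 without the set term). RNAi 1 held nearly all of this difference, and RNAi 2 was below wild type 1.

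In the fit with the set term, 2 of 14 tested lysosome genes were called higher and 1 was called lower, against 3.45% and 3.65% of all tested genes. Gba1a and Gba1b, glucocerebrosidase genes, rose 3.37-fold and 5.53-fold (edgeR adjusted p = 5.30e-09 and 0.00460), Gba1a from 128 and 75.3 CPM to 421 and 261 CPM. Gba1b had only 16 and 2 counts in wild type against 69 and 54 counts in the libraries labelled RNAi, so its fold rests on few wild-type counts. By these wild-type counts alone Gba1b would not have entered the test. Reads may be split between these related genes. Hexo2, of the hexosaminidase family, fell by 1.34 on the log2 scale (edgeR adjusted p = 7.33e-05), from 11.1 and 10.4 CPM to 4.26 and 4.28 CPM. Without the set term none of these 3 genes passed in edgeR (adjusted p = 0.609, 0.587 and 0.608 for Gba1a, Gba1b and Hexo2), and each had an unadjusted p under 0.05. The general lysosomal genes Lamp1 and CtsL1 had log2 fold changes of 0.035 and 0.081 with the set term and did not pass. Over all tested lysosome genes that were not called, the values of that fit ran from -0.32 for Hexo1 to 0.42 for Sap-r.

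The 3 relatives with a sterol-sensing domain or of the Patched family and the 10 tested IMD pathway genes, of the response to bacteria that Npc2 proteins have been tied to, had no call in edgeR (0 at an unadjusted p under 0.05 in either fit). The closest were disp, with a log2 fold change of -0.29 (SE 0.21, edgeR adjusted p = 0.517) with the set term, and the peptidoglycan sensor gene PGRP-LE, with -0.29 (SE 0.17, edgeR adjusted p = 0.393). The medians of the lists with the set term were 0.24 for sterol sensing and lipoprotein genes, 0.11 for transfer proteins, 0.26 for ester and neutral lipid enzymes, 0.026 for lysosome genes, -0.041 for the domain relatives and -0.066 for IMD genes, against 0.0040 over all genes tested.

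**Figure D5:**
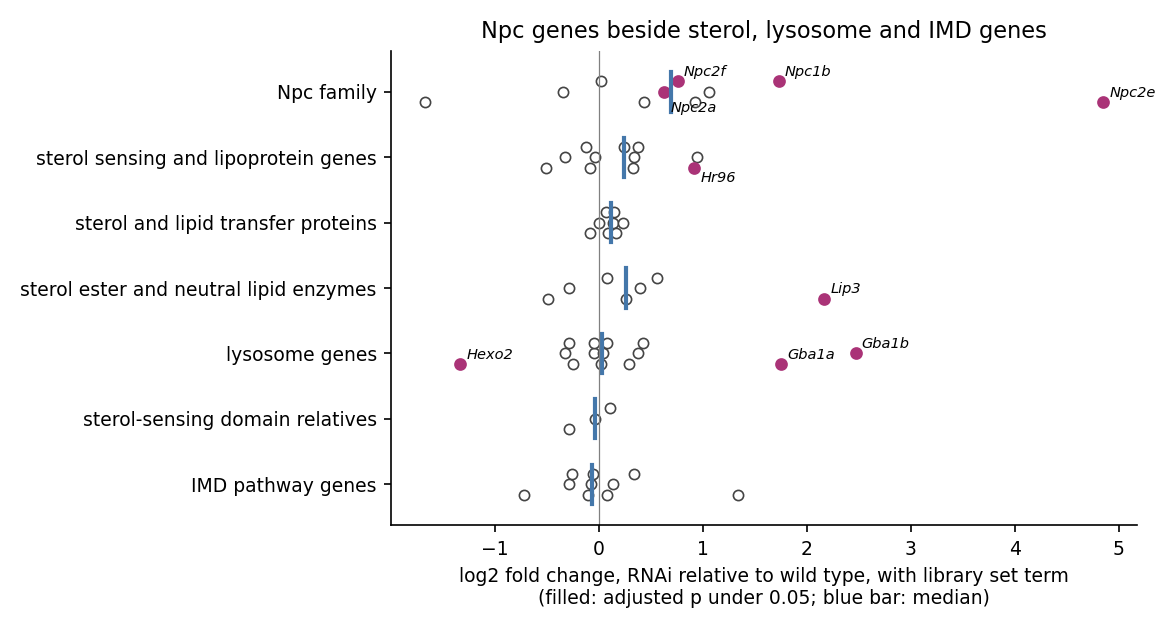
Log2 fold change with the library set term of each tested gene in the Npc family and in 6 lists of sterol, lipid, lysosome and IMD genes; filled points have an adjusted p under 0.05 and the blue bar is the median of the list. The Npc median is 0.69, and the filled points outside the family are Hr96, Lip3, Gba1a, Gba1b and Hexo2.

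The genes most like Npc1b over the 4 libraries were found by the distance between log2 CPM values centred on each gene's mean, among 6759 genes whose mean reached 5 CPM. The nearest was Zip89B, of the ZIP zinc transporter family, at a distance of 0.360, with 7.82 and 9.87 CPM in wild type against 27.2 and 41.1 CPM. CG10943 followed at 0.360, with 40.2 and 71.7 CPM against 131 and 182 CPM. The next were lectin-24A, a C-type lectin gene, at 0.398, CG14219 at 0.407 and blot, of the SLC6 transporter family, at 0.472. These 5 genes were chosen by closeness to Npc1b over the same 4 libraries, so a like order of libraries follows from that choice. As in Npc1b, both libraries labelled RNAi were above both wild-type libraries, and set 2 was above set 1 in each genotype.

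Within the family, the gene closest to Npc1b by this measure was Npc2f at a distance of 1.52, and Npc1a stood at 1.95. Among the 45 pairs of members the closest were Npc2a with Npc2d at 0.488, Npc2g with Npc2h at 0.556 and Npc2a with Npc2f at 0.561, while the 9 pairs that hold Npc2c were the most distant, at 4.42 to 7.94.

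Genes nearest to Npc2f, Npc2d, Npc2a and Npc2c were looked up after their values were seen. Adk3, an adenylate kinase family gene, stood at 0.108 from Npc2f, lncRNA:CR44310 at 0.117 and the maltase gene Mal-A6 at 0.148. The gene sel stood at 0.0821 from Npc2d and the gene cac at 0.0701 from Npc2a. The nearest to Npc2c, CG5892, was at a distance of 1.74, with 172 and 468 counts in wild type and 19 and 315 counts in the libraries labelled RNAi. With 4 libraries, such distances describe these libraries only.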

How the data were processed

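RNA of adult fly intestines was measured in 4 libraries. The authors deposited raw read counts per gene, 1 column per library, and BDGP6, STAR and FastQC appear in the submitters' processing notes. The counting tool is, like its strand setting and annotation, not given in the sources used here. Of 17510 identifiers 17405 had a symbol. Positions and exon lengths came from the Ensembl release 115 annotation of BDGP6. Libraries of a genotype were numbered in order of deposit.

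The counts were fitted with edgeR 4.0.16 under R 4.3.3: filterByExpr left 9637 genes, libraries were TMM-scaled, and the robust quasi-likelihood test compared genotypes, with Benjamini-Hochberg adjustment over all tested genes and a threshold of 0.05. SE is the log2 fold change divided by the square root of the F statistic. Log2 CPM used a prior count of 2, and the fold changes of edgeR used the default prior count of its fit. Alternatives included DESeq2 1.42.0, limma-voom (limma 3.58.1) and a library set term. The members, gene lists and alternatives were chosen with earlier results of these data known. Named genes were all members, the closest genes to Npc1b and, per list, up to 3 called genes or else the 1 of smallest p. Those outside this rule are said to be so, except markers, antisense neighbours and the lysosome genes that were not called. Of 104 listed names, esg and Dl matched no row and CG42668 was the same gene as CG5077, now Orp8.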

Additional observations from a re-analysis of the deposited data

How the results depend on the processing

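Of 10 members, Npc1b, Npc2a, Npc2e, Npc2f, Npc2g and Npc2h were higher and Npc2b was lower under every alternative run that gave them a value (17 settings, 16 for Npc2e and Npc2h). The number of genes differing, 12, became 120 without a count filter, 92 with DESeq2, 1 with upper-quartile scaling or when a mean of 5 CPM was required, and 58 to 120 as each library was left out. With the library set term it was 684 in edgeR, 413 in DESeq2, 799 in limma-voom, 968 with library size alone and 600 without a count filter. The number of Npc members called higher, 0, became 1 with DESeq2 and 0 to 1 as each library was left out, and with the set term 4 in edgeR, 2 in DESeq2, 4 in limma-voom, 6 with library size alone and 4 without a count filter. The number called lower, 0, was 0 to 1 as each library was left out and 1 with the set term in DESeq2, in limma-voom, with library size alone and without a count filter, Npc2c in each case.

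The log2 fold change of Npc1a turned to 0.034 with library size alone, 0.020 with limma-voom, 1.17 without wild type 2 and 0.52 without RNAi 1 (range as each library was left out, -1.05 to 1.17), and with the set term to 0.021 in edgeR, 0.026 in DESeq2, 0.012 in limma-voom, 0.12 with library size alone and 0.00077 without a count filter. Npc2c turned to 2.02 without wild type 2 (range -8.23 to 2.02) and Npc2d to -0.089 without RNAi 1 (range -0.089 to 0.86); the cause was not tested. The labels pair no libraries. The set term sets 1 library of each genotype against the other in each set. This pairing was read from the counts and coincides with the order of deposit, by which the libraries were numbered. DESeq2 with the set term gave no adjusted p for Npc2e. Where a left-out library left 1 in a genotype, it was assumed to vary like the others. The depth of wild type 2 limits Npc2e, Npc2g and Npc2h.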
